A study of Arabidopsis thaliana with 18 samples.

Results

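The effect of a mutated histone deacetylase gene on the seedling transcriptome at 22 °C was examined by comparing hda6 with wild-type Col-0. The comparison uses 6 of the 18 RNA-seq libraries of the series, 3 of each genotype, and covers every gene with a deposited value. All plants were Arabidopsis thaliana seedlings 7 days old, raised on 1/2 MS plates in long days (16 h light and 8 h dark). The hda6 plants are labelled as an EMS line, that is, a line from chemical mutagenesis. The labels name no allele, and such a line can carry other base changes. The same genotypes were also sampled after 1 h at 37 °C, 3 libraries each, and these other 6 libraries are used below to see the same genes in separate material. Another genotype, sant-null, labelled as quadruple mutants, is quoted only beside the values of single genes, because its 22 °C comparison uses the same 3 Col-0 libraries. The stated aim of the series concerned SANT1/2/3/4 and the response to high temperature.

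Histone deacetylases remove acetyl groups from histone tails, which generally goes with closed chromatin and low transcription. HDA6 is a nuclear enzyme of the RPD3 class. It is known in Arabidopsis for silencing transposons, transgenes and repeated ribosomal RNA genes together with the DNA methyltransferase MET1, and for roles in flowering time, jasmonate signalling and the acetate pathway of drought tolerance.

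The authors deposited a single mean FPKM (fragments scaled by gene length and by sequencing depth) per group, and a table of log2 fold changes with standard errors (SE) for hda6 against Col-0. Values of single libraries were therefore not analysed here, and neither the overlap of the groups nor a library that stands apart could be examined. The mean library held 21.3 M normalised fragments. Whether the replicate libraries stem from independent sowings is not stated in the labels. The p-values therefore describe the scatter among the libraries, and part or all of it may be technical. HDA6 itself (AT5G63110, chr5:25315506-25318347, minus strand, TAIR10.1, 6 exons) had a mean FPKM of 6.83 in Col-0 and 7.59 in hda6. The authors' deposited table gave 0.10 ± 0.09 (SE) on the log2 scale for HDA6, with an adjusted p of 0.602. A transcript level does not check a base change, so it neither supports nor opposes the label. Markers of green tissue and of root were present in both genotypes. The 44 photosynthesis genes of a list summed to an FPKM of 68139 in Col-0 and 61980 in hda6, and all 17 root markers were above 0. The 17 seed and embryo genes summed to 1.27 and 1.46, and the 6 floral organ genes to 3.57 and 2.76. The nuclear 18S ribosomal RNA locus AT3G41768 had a mean FPKM of 119 in Col-0 and 203 in hda6, and the authors' deposited table gave 0.72 ± 0.05 (adjusted p = 7.12e-51). After 1 h at 37 °C the authors' deposited table gave -0.08 ± 0.37 for this locus. The second 18S locus, AT2G01010, was at 0.43 ± 0.15 at 22 °C and 0.43 ± 0.11 at 37 °C in the authors' deposited table. AT2G01020, also annotated as ribosomal RNA, was at 0.59 ± 0.40 and 0.82 ± 0.12 there. Such ribosomal RNA genes lie in near-identical repeats, whose reads cannot be assigned with certainty. The part of this ribosomal RNA difference in the results below was not tested. In whole seedlings, a smaller share of cells of a type and less RNA per cell cannot be told apart.

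Large changes in hda6 were nearly all rises from a very low wild-type level. Of 23447 genes with an adjusted p in the authors' deposited table, 2486 (10.6%) were called at an adjusted p under 0.05, 1430 higher in hda6 (6.1%) and 1056 lower (4.5%). Most calls were small. Among calls of at least 2-fold, 578 genes were higher (2.47% of genes tested) and 36 lower (0.154%). The genes raised at least 2-fold were mostly near silent in Col-0, with a median mean FPKM of 0.0479 there and 0.762 in hda6, and 28 of them had an FPKM of at least 1 in Col-0. The 1020 genes lowered by less than 2-fold lay at the other end, with a median Col-0 FPKM of 15.6 against 2.83 over all tested genes. The 852 genes raised by less than 2-fold had a median of 4.48. At the 2-fold limit the members run without a gap, from 0.99 just outside to 1.00 just inside on the log2 scale. The split between directions depends on the scaling. Of the called genes 57.5% were higher in the authors' deposited table, 77.2% (1801 higher and 533 lower) on the scale of the FPKM means, and 65.4% (1542 and 814) when the changes were centred on the median of expressed genes. With an FPKM of at least 1 in either group the numbers were 1040 higher and 1038 lower in all, and 230 higher and 22 lower at 2-fold or more. Genes near silent in Col-0 could pass that filter through hda6 alone. With an FPKM of at least 1 in Col-0 itself, 28 genes were higher and 22 lower at 2-fold or more. The excess of large rises thus lay among genes of low Col-0 level, which had little room to be called lower.

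**Figure D1:**
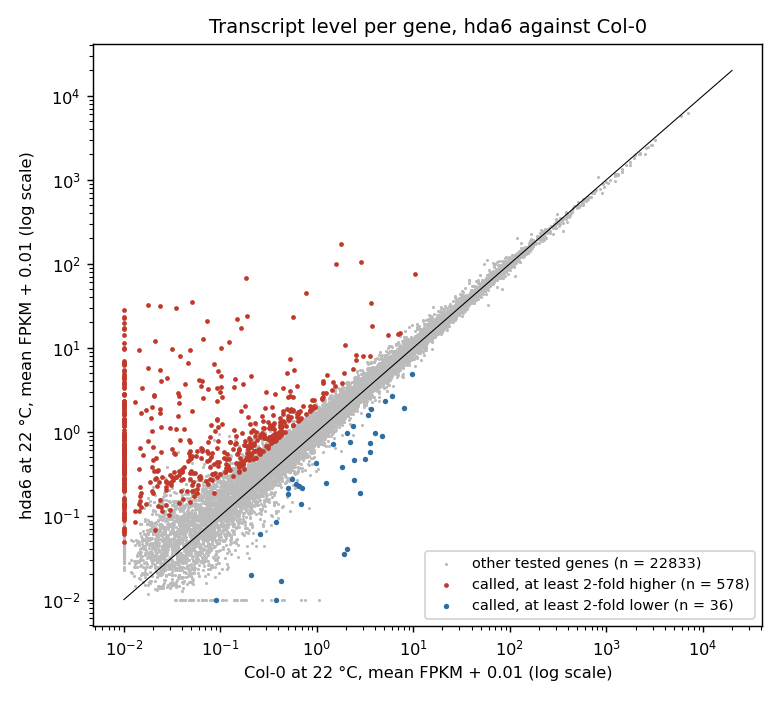
Mean FPKM of each tested gene in Col-0 (horizontal) and hda6 (vertical) at 22 °C, both plus 0.01 on log axes, with the line of equality. The 578 genes raised at least 2-fold fill the left edge, where Col-0 is at or near 0, while the 36 lowered genes all lie at a Col-0 FPKM of 9.70 or less.

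Several transcripts that were scarce in wild type became abundant in hda6. AT5G03090 (chr5:725281-725962, plus strand, TAIR10.1, 2 exons), annotated as Mto 1 responding down protein, had a mean FPKM of 1.77 in Col-0 and 171 in hda6. The authors' deposited table gave 6.55 ± 0.18 for AT5G03090 (adjusted p = 1.74e-285). The noncoding RNA gene AT1G67105 (chr1:25057479-25058264, plus strand) went from 2.88 to 105, or 5.13 ± 0.18 in the authors' deposited table. Both were measurable in Col-0, so these folds do not rest on an empty group. The uncharacterized gene AT3G01345 (chr3:129138-130749) was at 0.174 in Col-0 and 68.4 in hda6, and the authors' deposited table gave 8.56 ± 0.23. AT5G15360 was at 0.757 and 44.2, or 5.81 ± 0.17 in the authors' deposited table. AT5G26270, the one of these genes with the highest Col-0 level, was at 10.5 and 75.3, or 2.80 ± 0.14 in the authors' deposited table. After 1 h at 37 °C the hda6 means of AT5G03090 and AT1G67105 were 167 and 98.8, and those of Col-0 were 1.65 and 2.44. In sant-null at 22 °C, where 8.82% of genes were higher and 8.98% lower than in the same Col-0 libraries, AT5G03090 was at 0.635 and AT1G67105 at 4.66. Both raised genes were thus high in hda6 at both temperatures and low in Col-0 and sant-null.

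A further 164 of the 578 raised genes were listed at an FPKM of 0 in Col-0. A gene at 0 in Col-0 could enter the tested set only through hda6, so it had to be higher there, and no fold is given. Their hda6 FPKM ran from 0.0385 to 28.2, with a median of 0.621. In the separate libraries taken after 1 h at 37 °C, 152 of the 164 were again listed at 0 in Col-0 and 154 were above 0 in hda6. In sant-null at 22 °C, 120 were listed at 0. The 6 with the highest hda6 level were the noncoding RNA gene AT4G05275 (28.2), AT5G41660 (23.46), AT5G36900 (22.7), the noncoding RNA gene AT2G04735 (19.6), AT4G07965 (17.3) and AT1G36272 (16.9). The 4 protein-coding genes among these encode uncharacterized proteins. OFP9 (AT4G04030), a gene of the ovate family of transcriptional repressors, was listed at 0 in Col-0 and at 10.02 in hda6, and AT2G19850, also annotated as a transcription repressor, at 0 and 6.61. Ulp1 protease family genes, AT5G28810 and AT5G45570, were at 4.39 and 9.37 in hda6, against 0 and 0.00446 in Col-0. Of the 12 largest rises among genes with an FPKM of at least 1, 9 were listed at 0 in Col-0 and 3 were annotated as noncoding. All 12 were called higher at 37 °C too.

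The sequences just upstream of raised genes are shown because DNA methylation at CG sites is the mark with which HDA6 is known to act. Each is the 250 bases before the annotated start in RefSeq's TAIR10.1, read 5′ to 3′ on the gene's strand, with CG dinucleotides in capitals. They are AT5G41660 (chr5:16656458-16656707, plus), AT5G03090 (chr5:725031-725280, plus) and QQS (chr3:12348797-12349046, plus).
AT5G41660: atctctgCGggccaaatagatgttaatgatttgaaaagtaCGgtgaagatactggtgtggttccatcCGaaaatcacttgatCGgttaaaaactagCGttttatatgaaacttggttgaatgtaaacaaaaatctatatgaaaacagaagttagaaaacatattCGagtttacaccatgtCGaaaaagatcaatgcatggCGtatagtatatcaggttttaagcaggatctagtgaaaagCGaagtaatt
AT5G03090: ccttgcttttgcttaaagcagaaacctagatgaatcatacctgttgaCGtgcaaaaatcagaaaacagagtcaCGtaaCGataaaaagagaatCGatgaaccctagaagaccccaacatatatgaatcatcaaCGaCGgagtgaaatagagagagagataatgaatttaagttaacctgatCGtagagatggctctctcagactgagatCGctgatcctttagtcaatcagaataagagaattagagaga
QQS: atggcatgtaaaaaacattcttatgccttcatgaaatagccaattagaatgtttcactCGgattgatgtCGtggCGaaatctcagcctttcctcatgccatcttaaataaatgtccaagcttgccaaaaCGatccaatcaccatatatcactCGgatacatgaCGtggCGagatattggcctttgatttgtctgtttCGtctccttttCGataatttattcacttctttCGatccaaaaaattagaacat
These windows hold 9, 8 and 10 CG sites, while those of the raised genes OFP9 and AT1G67105, not printed, hold 5 and 4. Over all 23447 tested genes the median was 5 CG sites, and it was also 5 over the 578 genes raised at least 2-fold, whose median GC content was 32.4% against 31.6%.

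QQS (AT3G30720, chr3:12349047-12349933, plus strand, 3 exons) encodes a small protein found only in Arabidopsis thaliana and its level is known to vary with DNA methylation of repeats in its promoter. At 22 °C its mean FPKM was 0.562 in Col-0, 23.498 in hda6 and 0.858 in sant-null. It was 0.132 in Col-0 and 7.17 in hda6 at 37 °C. The authors' deposited table gave 5.37 ± 0.23 at 22 °C (adjusted p = 8.08e-121). The window printed above contains an imperfect tandem repeat. Bases 1 to 90 and 95 to 184 align over 91 columns with 62 identical (68.1%).
QQS bases 1 to 90: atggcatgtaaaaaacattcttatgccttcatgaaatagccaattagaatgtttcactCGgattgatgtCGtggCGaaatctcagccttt
QQS bases 95 to 184: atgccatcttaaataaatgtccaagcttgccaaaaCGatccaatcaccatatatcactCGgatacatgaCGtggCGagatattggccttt
Each copy ends in the same trio of CG sites, and the copy nearer the gene has another ahead of it. In a list of 3 loci known to be silenced by DNA methylation, QQS and SDC were higher, where 6.1% of all tested genes were. With so few members nothing is read from this count. SDC (AT2G17690), an F-box gene with methylated promoter repeats, had an FPKM of 0.00865 in Col-0 and 0.243 in hda6, or 4.75 ± 1.17 in the authors' deposited table. The size of the SDC change rests on a fitted Col-0 mean of 0.64 normalised fragments per library. FWA, the other member, was at 0.0418 and 0.130 with an adjusted p of 0.134.

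Raised genes were unevenly spread over the genome. In 1 Mb bins with under 100 protein-coding genes, which in this genome lie mostly around the centromeres, 91 of 454 tested genes (20.04%) were raised at least 2-fold. The share was 8.28% (92 of 1111) in bins with 100 to under 200 genes and 1.81% (395 of 21882) in bins with 200 or more. Calls in the lower direction made up 5.73%, 4.41% and 4.48% of the same classes. Genes of gene-poor bins are also often silent in wild type, and genes listed at 0 in Col-0 could only be called higher. Among genes with a Col-0 FPKM of at least 1, 2 of 227, 5 of 646 and 21 of 15149 were raised at least 2-fold. These shares were 0.881%, 0.774% and 0.139%. All calls of these expressed genes in the higher direction made up 8.37%, 7.59% and 4.66% of the 3 classes, and those in the lower direction 11.5%, 7.59% and 6.36%. Among these expressed genes both directions were thus more frequent in gene-poor bins. Of genes within 2000 bases of an annotated pseudogene, 146 of 1905 (7.66%) were raised at least 2-fold, against 432 of 21542 (2.01%) elsewhere. The counts are descriptions without a test, and the pseudogene classes were not split by Col-0 level. Genes raised at least 2-fold were shorter and less characterised than all tested genes, in a comparison not matched for Col-0 level. Their median exon length was 1176.5 bases against 1678, 28.4% had a single exon against 19.5%, and 18.0% encoded uncharacterized proteins against 6.43%.

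**Figure D2:**
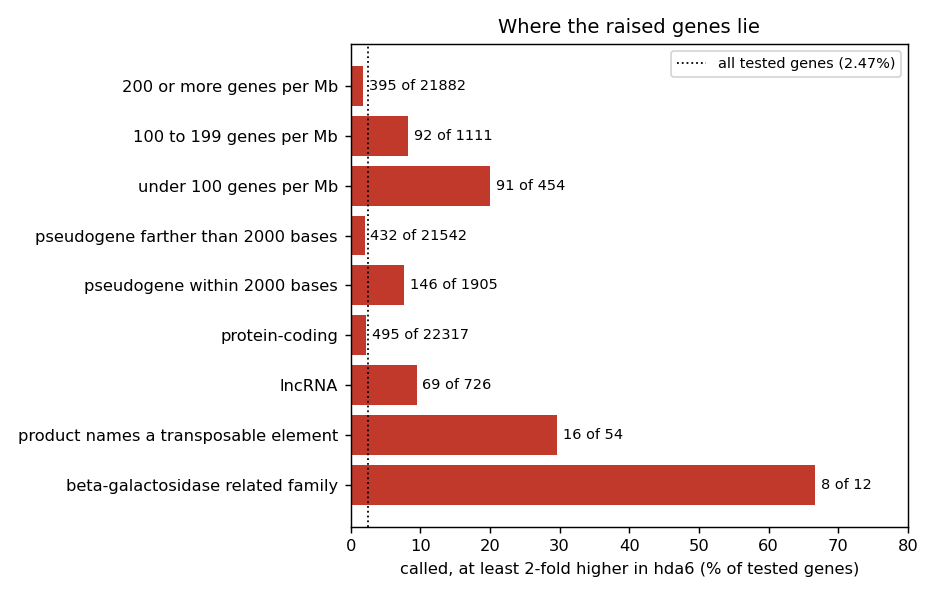
Share of tested genes in each class that were called and at least 2-fold higher in hda6, with counts beside the bars and the share over all tested genes (2.47%) as a dotted line. The share climbs from 1.81% to 20.04% as gene density falls, and it is 66.7% in the beta-galactosidase related family. Genes of every Col-0 level are included, also those listed at 0 in Col-0, which could only be called higher.

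By kind of gene, 69 of 726 long noncoding RNA genes (9.50%) and 495 of 22317 protein-coding genes (2.22%) were raised at least 2-fold. A single long noncoding RNA gene was lower. Of 54 tested genes whose product names a transposable element or a reverse transcriptase, 16 were higher, all at least 2-fold, and 0 were lower. Genes listed at 0 in Col-0, some of them among these 16, could only be called higher. Neither the kinds of gene nor the families below were split by Col-0 level. AT3G30820, annotated as a retrotransposon ORF-1 protein, was listed at 0 in Col-0 and at 3.31 in hda6. AT2G41590, a Ta11-like non-LTR retrotransposon, was at 0.00949 and 1.02. The other 14 had an hda6 FPKM under 1. Reads of related copies cannot be assigned with certainty, and most transposable elements are not among the genes of the table. Of 12 tested genes of a family annotated as beta-galactosidase related, 8 were raised and 0 lowered. AT4G29200 was at 0.0110 in Col-0 and 11.9 in hda6, AT5G01080 at 0 and 11.4, AT3G24542 at 0.00767 and 5.74, and AT5G35760 at 0.355 and 2.78. These members lie on several chromosomes and their upstream windows were no more than 53.1% identical in any pair. Of 123 genes for cysteine/histidine-rich C1 domain proteins 19 were higher and 0 lower, 8 of them by at least 2-fold, with AT3G27473 at 0.0638 and 0.743. Of 60 disease resistance genes of the TIR-NBS-LRR class 11 were higher and 2 lower. AT5G41750 rose from 0.104 to 0.462, and RPP4 fell from 7.93 to 6.70. Of 35 AP2/B3-like genes 5 were higher and 1 was lower, with AT3G53310 at 0.440 and 3.29 and REM22 at 0.00989 and 0.646. Of all tested genes 6.1% were higher and 4.5% lower. Other families also had at least 5 genes raised at least 2-fold. RING/U-box genes had 9 of 233 higher (3.86%) and 2 lower, and F-box genes 5 of 72 (6.94%) and 1. Leucine-rich repeat kinase genes had 9 of 113 higher (7.96%) and 9 lower, and F-box/RNI-like genes 8 of 48 (16.7%) and 2. All these families were singled out after their raised members were counted, so their shares carry no weight beyond the counts.

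Raised genes also had raised neighbours. Of the 578, 103 (17.82%) had a neighbouring gene raised at least 2-fold, against 776 of all 23447 tested genes (3.31%). The 578 include 164 genes listed at 0 in Col-0, which could only be called higher, and no count was made without them. There were 8 runs of at least 3 adjacent raised genes, with 25 genes in all, and 6 of the 8 lay in bins with under 200 genes per Mb. Of the 25 genes 14 were listed at 0 in Col-0. The longest, of 4 genes, spans 25.1 kb at chr1:13610985-13636083, and its 4 genes were all listed at 0 in Col-0. Within it AT1G36240, a ribosomal protein L7Ae family gene, was at 9.53 in hda6 and AT1G36272 at 16.9, while AT1G36230 and AT1G06967 were at 0.133 and 0.377. Further runs on the same chromosome held AT1G06987, AT1G36675 and AT1G06993 (2.60 to 9.74 in hda6), and AT1G36920, AT1G36922 and AT1G36925 (0.228 to 3.19). On chromosome 2 the run of AT2G08045, AT2G08050 and AT2G08055 was between 0.781 and 1.59. On chromosome 3, AT3G24514, AT3G24516 and AT3G24517, within 1.57 kb, were listed at 0 in Col-0 and between 2.13 and 6.85 in hda6, and AT3G06465, AT3G42723 and AT3G42725 lay between 0.256 and 1.76. On chromosome 4, AT4G04223 rose from 3.74 to 18.0, or 2.22 ± 0.14 in the authors' deposited table, beside AT4G04260 and the transposase gene AT4G04265. AT3G24516 and AT3G24517, on the minus strand, lie within the span of AT3G24514 on the plus strand. Whether the authors' counting used strand is not stated, so reads of such genes cannot be told apart and members of a run are not independent.

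The last run contains a microRNA gene. MIR841b (AT4G04835, chr4:2184135-2184629) had a precursor FPKM of 0.568 in Col-0, 5.42 in hda6 and 4.53 in sant-null, and the authors' deposited table gave 3.17 ± 0.32 for hda6 (adjusted p = 2.56e-20). Its neighbours AT4G04855 and AT4G04865 rose from 0.556 to 2.61 and from 0.309 to 1.09. At 37 °C the precursor was at 0.0442 in Col-0 and 0.0941 in hda6 and none of the 3 genes had an adjusted p. The libraries measure precursor transcripts, not mature microRNAs. The mature sequence that RefSeq places on this locus is given with its seed (bases 2 to 8) in capitals, to identify the product.
ath-miR841b-5p: uACGAGCCacuggaaacugaa
Of 85 microRNA genes tested, 5 were higher (5.88%, against 6.1% of all tested genes) and 1 was lower. MIR5642a rose from 13.5 to 21.38 and MIR163 from 10.8 to 18.9, and MIR414 fell from 73.9 to 52.9.

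Of 32 genes for DNA methylation and silencing 3 were higher (9.38%) and 1 was lower (3.12%), shares near those of all tested genes (6.1% and 4.5%). The 3 higher ones were DRM1, a domains rearranged methylase gene (0.0142 to 0.118), CLSY3, a chromatin remodeller of the RNA-directed DNA methylation pathway (0.0754 to 0.175), and RDR2, which makes double-stranded RNA in that pathway (1.03 to 1.46). AGO4, which binds its small RNAs, fell from 8.85 to 7.83. AGO4 lost its call on the FPKM scale, with an adjusted p of 0.0640. In the demethylation list the members called were lower. ROS1 (AT2G36490), a DNA glycosylase that removes methylated cytosine and whose own transcript is known to depend on promoter methylation, fell from 3.36 to 1.55. The authors' deposited table gave -1.17 ± 0.10 at 22 °C and -1.18 ± 0.15 at 37 °C for ROS1. IBM1, a histone H3K9 demethylase gene, fell from 2.35 to 1.61, or -0.60 ± 0.12 in the authors' deposited table. Of the 6 genes in that list 2 were lower and 0 higher, and with so few members nothing is read from these counts.

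Of 17 histone deacetylase genes tested 2 were higher and 2 lower (11.8% each, against 6.1% and 4.5% of all tested genes), and with so few members nothing is read from these shares. HDA18, an RPD3/HDA1-class gene, rose from 0.149 to 0.477, or 1.63 ± 0.37 in the authors' deposited table, and was at 1.42 in sant-null. HDA7 was listed at 0 in Col-0 and at 0.0837 in hda6. HDA14 fell from 10.4 to 8.78 and HDA5 from 6.62 to 5.84, and HDA5 lost its call on the FPKM scale (adjusted p = 0.163). Of 14 genes for partners and co-repressors of HDA6 4 were lower and 0 higher, namely FVE, a histone-binding protein, and the SIN3-like genes SNL1, SNL2 and SNL3. In the authors' deposited table these 4 changes lay between -0.28 and -0.21. On the FPKM scale 0 of the 14 were called. The shift between the scalings was 0.05 on the log2 scale.

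The MADS-box genes MAF4, MAF5 and FLC, repressors of flowering, were higher: MAF4 rose from 0.561 to 1.75, MAF5 from 0.442 to 1.29 and FLC from 0.947 to 1.67. The authors' deposited table gave 1.60 ± 0.23, 1.496 ± 0.33 and 0.76 ± 0.25 for MAF4, MAF5 and FLC. SOC1, a promoter of flowering that FLC is known to repress, fell from 3.45 to 2.69 and lost its call on the FPKM scale (adjusted p = 0.0788). TEM2, another repressor, fell from 32.8 to 25.6. Of 18 flowering genes tested 3 were thus higher (16.7%, against 6.1% of all tested genes) and 2 lower (11.1%, against 4.5%). With so few members nothing is read from these shares. SEP3 was the 1 lower gene among 6 floral organ genes, at 3.16 and 2.21.

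Transcripts of small heat shock proteins, chaperones that bind unfolding proteins, were lower in hda6 at 22 °C. Of 18 genes 13 were lower and 1 was higher, where 4.5% of all tested genes were lower, and the median of the list was -2.35 on the log2 scale against 0.01 over all tested genes. In Col-0 the 13 lowered genes had FPKM between 0.371 and 22.2, so these were low basal levels, and 10 of them fell at least 2-fold. HSP17.8 (AT1G07400), a cytosolic class I protein gene, had an FPKM of 4.71 in Col-0, 0.872 in hda6 and 0.982 in sant-null. The authors' deposited table gave -2.48 ± 0.23 (adjusted p = 1.85e-25) for HSP17.8 in hda6. The mitochondrial HSP23.6 was at 2.77, 0.178 and 0.222 in the same order. The plastid gene HSP21 (AT4G27670, chr4:13818825-13819971, minus strand, 2 exons) was at 2.05, 0.0302 and 0.0770, and HSP22.0 at 1.92, 0.0245 and 0.0819. The authors' deposited table gave -6.04 ± 0.77 for HSP21 and -6.42 ± 0.87 for HSP22.0, sizes that rest on hda6 levels close to 0. HSP17.6C-CI fell from 3.55 to 0.567 but was at 2.25 in sant-null. HSP15.4, the most abundant in Col-0, fell from 22.2 to 16.2. HSP14.7 (AT5G47600) went the other way, from 0.495 to 2.60, or 2.32 ± 0.33 in the authors' deposited table. The low values of sant-null come from a comparison with the same 3 Col-0 libraries, so a raised basal level in 1 or more Col-0 libraries and a lowered level in hda6 cannot be told apart here.

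Several larger chaperone genes were also lower. Of 26 large chaperone and cofactor genes 13 were lower (against 4.5% of all tested genes) and 0 higher, with a list median of -0.17. HSP70B fell from 4.01 to 0.951, or -2.13 ± 0.14 in the authors' deposited table, and HSP101, a disaggregase, from 5.09 to 2.28, or -1.21 ± 0.10 in the authors' deposited table. BAG6, a cochaperone gene, fell from 1.49 to 0.834 and HSP70T-2 from 1.82 to 1.18. The abundant constitutive HSC70-3 fell from 53.5 to 50.05. Of the 26, 8 were lower on the FPKM scale. Of 19 heat shock transcription factor genes 4 were lower (21.1%) and 0 higher, with a list median of -0.09. HSFA2, the main heat-induced activator, fell from 1.81 to 0.372 and HSFA7B from 0.671 to 0.126. HSFB1 and HSFB2A fell from 12.1 to 10.7 and from 3.12 to 2.43, and both lost their calls on the FPKM scale, with adjusted p of 0.103 and 0.0880. In sant-null at 22 °C, HSP70B was at 1.09, HSP101 at 2.27, BAG6 at 0.945 and HSP70T-2 at 1.26. HSFA2 was at 0.563 there, HSFA7B at 0.110, HSFB1 at 8.96 and HSFB2A, which was not low, at 3.44. Both mutants were compared with the same Col-0 libraries, so here too a raised Col-0 level and a lowered level in hda6 cannot be told apart. Of the 36 genes lowered at least 2-fold, 14 belonged to these heat shock lists, and 9 of the 12 largest falls among genes with an FPKM of at least 1 were small heat shock proteins. The others were HSFA2, the defensin gene PDF2.1 (2.39 to 0.450) and AT7SL-1 (8.04 to 1.89), a gene for the RNA of the signal recognition particle.

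Heat shock factors bind inverted repeats of the block GAA, and the upstream windows were searched for the core in both phases, GAANNTTC and TTCNNGAA, which read the same on both strands. HSP21 (chr4:13819972-13820221, minus) and HSP17.4 (chr3:16984868-16985117, minus) are shown with their matches in capitals, where overlapping matches run together.
HSP21: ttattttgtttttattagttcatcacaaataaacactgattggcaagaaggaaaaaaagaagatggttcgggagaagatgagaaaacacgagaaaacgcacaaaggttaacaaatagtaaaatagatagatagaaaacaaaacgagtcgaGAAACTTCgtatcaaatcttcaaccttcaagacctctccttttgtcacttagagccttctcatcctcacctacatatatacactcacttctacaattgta
HSP17.4: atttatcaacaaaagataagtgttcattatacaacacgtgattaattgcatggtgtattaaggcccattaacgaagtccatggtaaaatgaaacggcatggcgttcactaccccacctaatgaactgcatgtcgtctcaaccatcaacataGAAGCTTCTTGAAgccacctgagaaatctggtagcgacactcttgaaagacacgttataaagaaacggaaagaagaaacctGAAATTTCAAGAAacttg
HSP17.4, shown because its window holds the most matches (4) among the 13 lowered small heat shock protein genes, fell from 0.371 to 0.0740. The HSP21 window holds 1. Either core occurred in 5 of the 13 lowered small heat shock protein windows, in 1 of 13 windows of lowered large chaperones (7.69%), in 11 of 36 windows of genes lowered at least 2-fold (30.6%), in 93 of 578 windows of genes raised at least 2-fold (16.1%) and in 15.9% of all tested windows. The 36 include 10 of those 13 small heat shock protein genes, so these shares are not independent. The windows of HSP22.0 and HSP23.6, both among the largest falls, held 0 matches. The search covers these letters in 250 bases only.

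Nuclear photosynthesis genes were lower by small amounts. Of 43 tested genes for light-harvesting proteins, photosystem subunits and Rubisco 34 were lower (79.1%, against 4.5% of all tested genes) and 0 higher. A negative log2 fold change was found in 42. The list median was -0.18 and the called members lay between -0.41 and -0.13 in the authors' deposited table. LHCB1.4, an antenna protein of photosystem II, fell from an FPKM of 1233 to 959, or -0.41 ± 0.04 in the authors' deposited table. LHCB1.2 fell from 2478 to 2002, PSAG of photosystem I from 277 to 225 and PSBQ2 of the oxygen-evolving complex from 576 to 495. RBCS1A, the most abundant Rubisco small subunit gene, was at 5878 and 5743 with an adjusted p of 0.400. Of the 43, 26 were lower on the FPKM scale. The Lhcb1 and Rubisco genes have near-identical copies, among which reads may be split. High expression went with lower calls: of 374 genes with a Col-0 FPKM of at least 100, 126 (33.7%) were lower and 15 higher. The 126 include the 34 lowered photosynthesis genes, whose lowest Col-0 FPKM was 277, so the 2 counts are not independent.

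Root markers moved the other way. Of 17 genes 7 were higher (41.2%, against 6.1% of all tested genes) and 0 lower, with a median of 0.44, and 15 had a positive log2 fold change. PRP3, a root hair wall protein, rose from 11.2 to 17.2, or 0.57 ± 0.11 in the authors' deposited table, and CASP1, which organises the Casparian strip of the endodermis, from 12.9 to 17.42. PRP1 rose from 3.76 to 5.71, CASP2 from 4.56 to 6.54 and COBL9 from 1.64 to 2.35. The radial patterning genes SHR (3.60 and 3.95) and SCR (8.56 and 7.89) were not called. The summed FPKM of the root markers was 63.4 in Col-0 and 83.5 in hda6. These values moved opposite to the photosynthesis values, and the part of the root and shoot share of the tissue in any result was not tested. Of the 10 seed and embryo genes tested 0 were called by DESeq2 in the authors' deposited table, and 2 had an unadjusted p under 0.05.

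**Figure D3:**
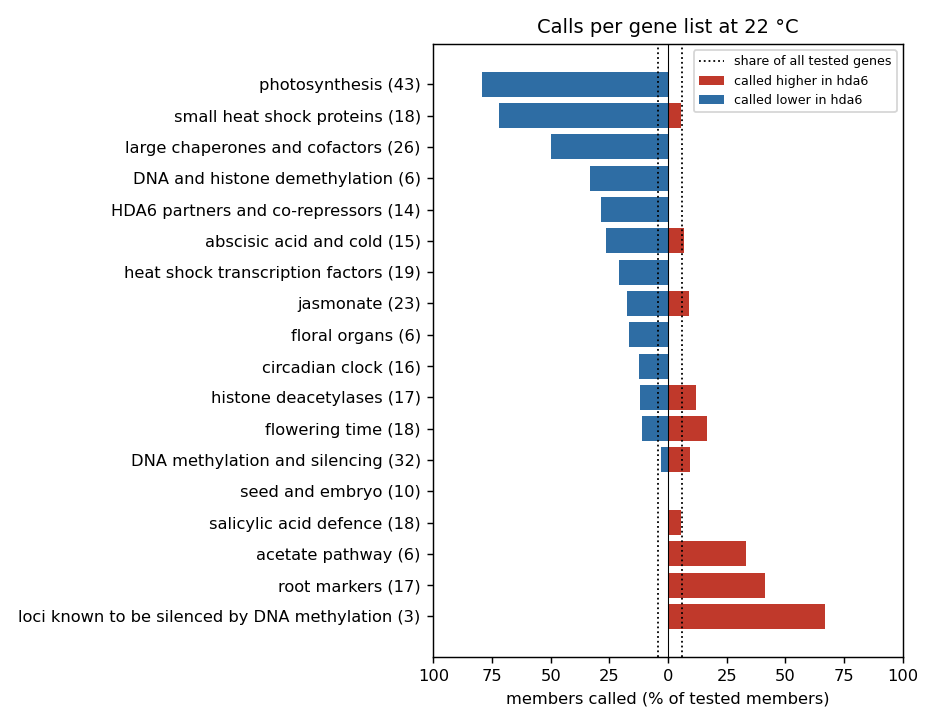
Members of each gene list called higher (right) or lower (left) in hda6 at 22 °C, in percent of the tested members, whose number is in brackets. Dotted lines mark the shares over all tested genes (6.1% higher and 4.5% lower), and photosynthesis, small heat shock protein and large chaperone genes reach 79.1%, 72.2% and 13 of 26 on the lower side.

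Hormone and stress lists were mixed, where 6.1% of all tested genes were higher and 4.5% lower. With so few members, nothing is read from the list counts below. Of 23 jasmonate genes 2 were higher and 4 lower. AOS and AOC2, which act in sequence in jasmonate synthesis, fell from 25.6 to 20.4 and from 13.5 to 10.4, and the repressor gene JAZ6 fell from 10.9 to 7.61. The defensin gene PDF1.2A rose from 0.108 to 0.526, with 2.22 ± 0.77 in the authors' deposited table. PR1, a marker of salicylic acid defence, was the 1 called member of its 18 tested genes, at 0.0138 in Col-0 and 1.85 in hda6, or 6.84 ± 1.06 in the authors' deposited table. That size rests on a fitted Col-0 mean of 0.63 normalised fragments per library. At 37 °C PR1 was listed at 0 in both genotypes. In the acetate pathway, which HDA6 is known to repress, ALDH2B7 rose from 3.59 to 6.72, or 0.85 ± 0.11 in the authors' deposited table, and PDC1, its partner upstream, from 8.02 to 11.2. In sant-null ALDH2B7 was at 8.97 and PDC1 at 14.74. The other 4 genes of that list were not called. Of 15 abscisic acid and cold genes 4 were lower and 1 was higher. KIN1 fell from 2.06 to 0.946, KIN2 from 15.42 to 11.7 and RD29A from 5.23 to 3.96, while COR15A rose from 0.356 to 0.842. Of 16 clock genes CCA1 (35.9 to 32.7) and CHE (20.6 to 17.79) were lower and 0 were higher, while 2 were higher on the FPKM scale. BBX18, a B-box factor outside these lists, had the highest Col-0 level of the 36 genes lowered at least 2-fold and fell from 9.70 to 4.87, or -1.04 ± 0.12 in the authors' deposited table.

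The same genes were then read in the separate libraries taken after 1 h at 37 °C, where 9.06% of 20790 genes were higher in hda6 and 9.41% lower. Of the 578 genes raised at least 2-fold at 22 °C, 438 had an adjusted p at 37 °C. Of these 283 (64.6%) were higher and 1, PDF1.2A, was lower. Their median log2 fold change was 2.59 at 22 °C and 2.47 at 37 °C, and the difference between temperatures was called in 10 of the 438, 2 larger and 8 smaller at 37 °C. Over all genes that difference was called larger in 2.26% and smaller in 3.32% of 20598. Of the 36 genes lowered at least 2-fold, 33 had an adjusted p at 37 °C, 12 were lower and 5 higher there, and the median moved from -2.14 to -0.27. The difference was called in 17 of the 33, and in 16 of these the value at 37 °C was the higher one. Both the raised and the lowered set were chosen by the 22 °C value that enters the difference. That choice by itself favours smaller changes at 37 °C, and the size of this effect was not tested.

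**Figure D4:**
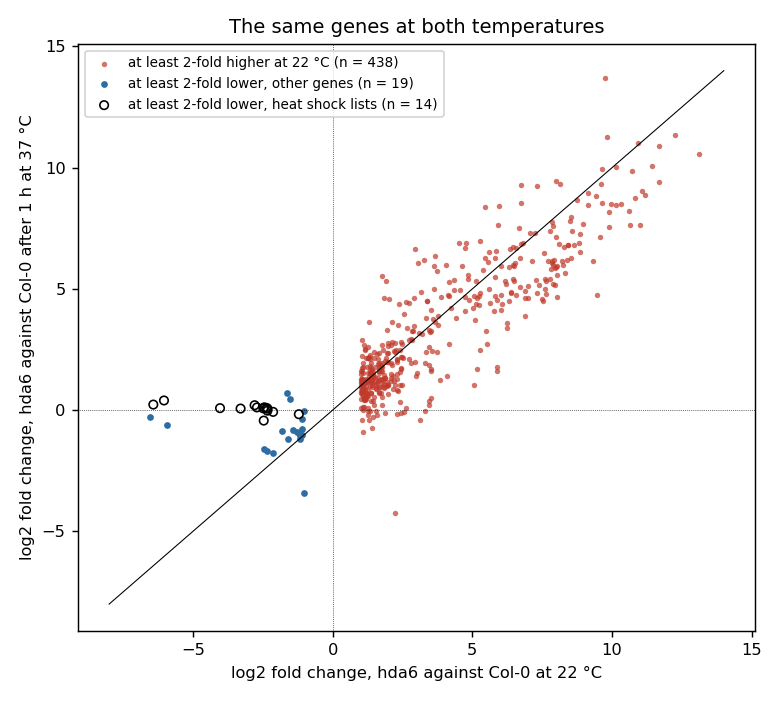
Log2 fold change of hda6 against Col-0 at 22 °C (horizontal) and after 1 h at 37 °C (vertical) for genes changed at least 2-fold at 22 °C and tested at 37 °C, with the line of equality. The 438 raised genes scatter along the line, while the 14 lowered heat shock genes (open circles) lie near 0 at 37 °C.

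After heat the small heat shock proteins were induced in both genotypes. The list summed to an FPKM of 75.9 in Col-0 and 48.4 in hda6 at 22 °C, and to 29949 and 32680 at 37 °C. At 37 °C 9 of 18 were higher in hda6 and 0 lower, and the difference between temperatures was called higher in 12 and lower in 0. HSP21 was at 1045 in Col-0 and 1377 in hda6, or 0.40 ± 0.04 in the authors' deposited table at 37 °C. For large chaperones 18 of 26 were lower at 37 °C and 2 higher, with sums of 28544 and 26232. The photosynthesis genes were also temperature dependent, with 6 higher and 3 lower at 37 °C, and the difference was called higher in 27 of 43 (13 on the FPKM scale) and lower in 0. BBX18 was at 21.68 in Col-0 and 2.04 in hda6 at 37 °C, or -3.41 ± 0.12 in the authors' deposited table.

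**Figure D5:**
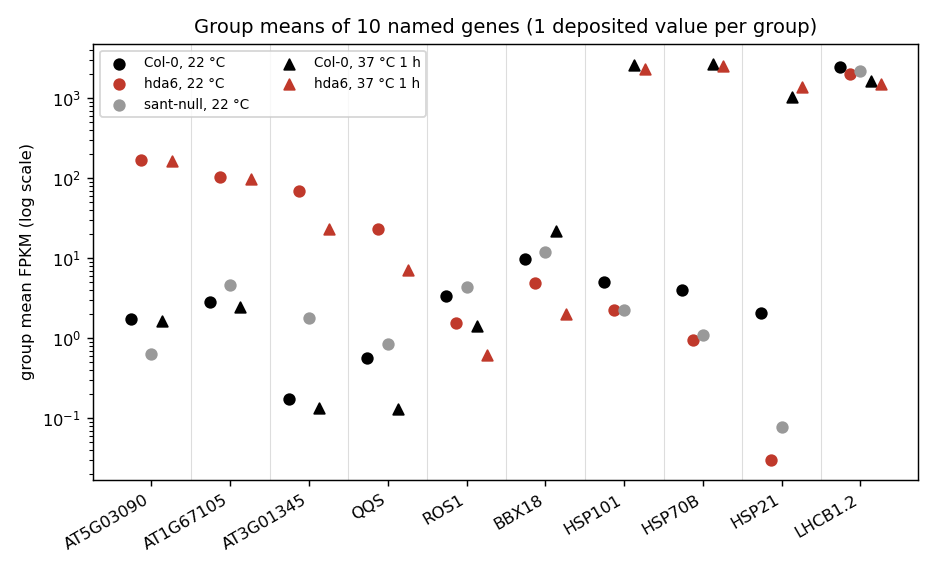
Authors' mean FPKM of 10 named genes on a log axis, with circles for 22 °C and triangles for 1 h at 37 °C, black for Col-0, red for hda6 and grey for sant-null. No error bars are drawn because a single value per group was deposited. AT5G03090 (171 and 167) and AT1G67105 (105 and 98.8) keep their hda6 level at both temperatures, while HSP21 is at 0.0302 and 1377.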

How the data were processed

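Whole-seedling RNA of 18 libraries in 6 groups of 3 was sequenced, of which 6 enter the comparison of hda6 with Col-0 at 22 °C. The tools named per the submitters' processing notes are DESeq2 1.30.1, HISAT2 2.2.1, CASAVA and featureCounts 2.0.1, with the genome build TAIR10. The sources used here do not give their roles or settings, nor how strand and reads with several matches were handled. The authors deposited FPKM as 1 mean per group, without an SD. The authors' deposited comparison table gives baseMean, a signal in normalised fragments averaged over the libraries, the log2 fold change with its SE, a Wald score, a p-value and an adjusted p. The deposited score equalled the log2 fold change over its SE to within 3.62e-07.

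Genes were called at an adjusted p under 0.05 as deposited, and 1925 of 25372 listed genes had none. To obtain the difference between temperatures, the 22 °C log2 fold change was subtracted from the 37 °C one, with squared SEs summed, a Wald test (SciPy 1.17.1) and Benjamini-Hochberg adjustment. The calculation was also run on values simulated from normal distributions with the deposited SEs. That run builds in the assumptions of the test, so it checks the calculation only. All other counts are descriptions. The planned fits to single libraries were not run, because the columns hold group means. Genes were matched by identifier to RefSeq's TAIR10.1 for names, positions and sequence. The exon length implied by baseMean and FPKM matched this annotation within 2% for 99.5% of 15095 genes. The 18 gene lists hold 323 entries. Named genes were HDA6, QQS, the 12 largest changes per direction among called genes with FPKM of at least 1, the 6 highest baseMean per direction at 2-fold or more, up to 4 called genes per list, runs of neighbours, and the 6 highest among genes listed at 0 in Col-0. Others serve as plain values or as examples chosen after their values were seen. Members and lists were chosen with earlier results of these data known.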

Additional observations from a re-analysis of the deposited data

Results flagged for a closer look

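Of the 106 genes named by rule, 24 had a difference between hda6 and Col-0 that itself differed between 22 °C and 37 °C (Wald test on the authors' deposited log2 fold changes and SEs, adjusted p under 0.05). On the FPKM scale 20 of them did. Each difference is the 37 °C log2 fold change less the 22 °C one. Many of these genes were named for an extreme 22 °C change, and the same 22 °C value enters the difference. That choice alone favours positive differences for genes named as falls and negative ones for genes named as rises. How much of each value it accounts for was not tested.

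Small heat shock proteins had the largest positive differences, with HSP22.0 at 6.65, HSP21 at 6.43, HSP23.6 at 4.11 and HSP17.7 at 3.36. HSP17.6II was at 2.99, HSP17.6C-CI at 2.82, HSP26.5 at 2.56, HSP17.8 at 2.55 and HSP17.6A-CI at 2.39. Among regulators, HSFA2 was at 2.31, HSFA7B at 2.03 and HSFB2A at 0.53. Among large chaperones and cofactors, HSP70B was at 2.06, HSP101 at 1.04, HSP70T-2 at 0.56 and BAG6 at 0.52. Photosynthesis genes had small positive differences, with LHCB1.4 at 0.26, PSAG at 0.26, LHCB1.2 at 0.23 and PSBQ2 at 0.19. On the FPKM scale PSAG, PSBQ2, BAG6 and HSP70T-2 did not pass, with adjusted p of 0.159, 0.223, 0.0886 and 0.0656.

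Negative differences were found for PDF1.2A at -6.45, which was higher at 22 °C and lower at 37 °C on FPKM means of 0.027 to 0.526, for BBX18 at -2.37, for AT3G01345 at -1.18 and for CCA1 at -0.21.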

How the results depend on the processing

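No paired analysis was possible because the FPKM columns hold 1 mean per group and the comparison tables no libraries; for the same reason the planned removal of each replicate was not run. The cause of the changes below was not tested, except that filters and pseudocounts remove or shrink low genes by construction. At an adjusted p under 0.01, 1570 genes were called in place of 2486 and 605 lower in place of 1056. On the FPKM scale (a shift of 0.05 on the log2 scale) 533 were lower, and the difference at 37 °C was called higher in 245 genes in place of 465, with 22.2% of its calls higher in place of 40.5%. Of all calls 77.2% were higher on that scale and 57.5% in the deposited table. At 2-fold or more, a pseudocount of 1 on the FPKM means left 166 genes in place of 614, 154 higher and 12 lower, and the FPKM filter of at least 1, chosen after seeing the data, left 252, 230 and 22. The other planned settings stayed within 1.5 times. Among list counts on the FPKM scale, histone deacetylases had 1 lower, partners 0 lower, silencing genes 0 lower, large chaperones 8 lower, heat shock factors 2 lower, flowering 1 lower and the clock 2 higher. At 0.01, deacetylases had 1 higher and 1 lower, partners 0 lower, silencing genes 0 higher, heat shock factors 2 lower, root markers 3 higher, flowering 1 lower and jasmonate 0 higher. With the FPKM filter, deacetylases and abscisic acid genes had 0 higher, and silencing genes, silenced loci and jasmonate 1 higher each. Of the 106 named genes 97 kept their direction and side of the threshold on the FPKM scale, and 9 small decreases lost their call (SNL1, SNL2, SNL3, FVE, AGO4, SOC1, HSFB1, HDA5 and HSFB2A). Depth limits the folds of raised genes: 236 of the 578 had a fitted Col-0 total under 3 fragments over 3 libraries.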
